A study of Mus musculus with 6 samples.

Results

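The promoters described here were open, by peak calls of the assay for transposase-accessible chromatin with sequencing (ATAC-seq), in RAG cells and in neither of the other cell lines of the study. Peaks of the 3 lines on chromosomes 1 to 19 were merged wherever they shared at least 1 bp, which gave 34742 intervals on the mouse build mm9. An interval was kept if it held peaks of RAG alone and lay within 1 kb of the start of a protein-coding transcript. This left 660 intervals, each with 1 RAG peak, at 694 of the 21410 protein-coding genes of these chromosomes. That is 3.24% of the genes, while 36.5% of them (7807 genes) had a RAG peak within 1 kb of a start, shared or not. The intervals were chosen by the presence of a RAG call and the absence of β-TC3 and MV+ calls, so their RAG signal is given as a description without a test.

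ATAC-seq cuts and tags DNA where nucleosomes leave it exposed, and an active promoter shows as a short stretch of dense fragments at the transcription start. Promoters of housekeeping genes are rich in CpG dinucleotides and open in most cell types. Promoters open in a single cell type are more often CpG-poor and belong to genes of that cell's shape, adhesion, signalling or transport.

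RAG cells (Pax6-OFF) came from a renal adenocarcinoma of a BALB/c mouse. β-TC3 cells (Pax6-HIGH) came from a mouse insulinoma, of a strain the paper does not give. MV+ cells (Pax6-ON) came from cultured lens epithelia of a wild-type C57BL6 mouse. All were grown untreated in the same serum-containing medium, and each line is a single established line of its tissue. Nuclei of 2 cell suspensions per line were tagged and sequenced as separate samples, but each line has 1 peak call on the pooled pair, so no value here has a replicate error and no difference was tested. The detergent buffer mixed with the cells to release nuclei held 0.2% NP40 for MV+ and 0.1% for β-TC3 and RAG. The detergent and the MV+ line therefore cannot be told apart, and nor can mouse strain and cell line. The calls rested on 102223606 RAG, 100254099 β-TC3 and 130955836 MV+ fragments and gave 14022, 28024 and 9821 peaks on all chromosomes. The lowest called summit held 25 fragments in RAG and β-TC3 and 30 in MV+, and 45 of the 660 promoters had a RAG summit below that MV+ minimum. A line without a call is therefore "not called", which is weaker than closed.

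The renal label was only partly borne out by promoter calls. Of 18 genes that mark kidney tubule epithelium, 4 had a RAG peak at a start and 3 of these were called in RAG alone. Cdh16, the kidney-specific cadherin, showed 43 fragments at the peak summit, with a fold enrichment over local background of 3.71. Krt18, a keratin of simple epithelia, had 36 fragments and a fold enrichment of 3.12. Pax2, a transcription factor of the developing nephron, had 44 fragments and a fold enrichment of 2.90, with the summit 541 bp from the nearest start. The fourth gene, Emx2, was called in RAG and MV+, and Cdh6 was called in β-TC3 alone, with 40 fragments. Of the 3 RAG-only markers 1, Cdh16, was kept with the 9821 strongest RAG peaks. Aqp2, Cdh1, Cubn, Epcam, Hnf4a, Krt8, Lhx1, Lrp2, Pax8, Slc34a1 and Umod had no call in any line. Of the markers of other tissues, 0 of 15 for beta cells and 0 of 9 for blood cells, 1 of 14 for lens (Cryab, 37 fragments) and 1 of 10 for fibroblasts (Pdgfra, 57 fragments) were among the RAG-only promoters. Pax6 had a promoter peak in β-TC3, with 175 fragments, and in MV+, with 74, and no call in RAG.

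The sequences of 7 of these promoters are shown because they represent the groups described below. Wwtr1 encodes the Hippo pathway coactivator TAZ, Anxa2 a calcium-dependent membrane protein and Perp a desmosome protein of the p53 pathway. Rassf6 carries a homeodomain motif, Cdh16 is the renal marker, and Msra and Thrb had strong RAG signal. Each stretch is 151 bases of the mm9 forward strand centred on the summit, or moved by 17 to 106 bp in Anxa2, Perp, Cdh16 and Msra so that it holds no annotated exon. The Anxa2 stretch ends before the summit, which lies in the untranslated part of an exon, and begins outside the called interval. They lie at chr3:57379865-57380015 (Wwtr1, reverse-strand gene), chr9:69301276-69301426 (Anxa2, forward), chr10:18564726-18564876 (Perp, forward), chr5:91069656-91069806 (Rassf6, reverse), chr8:107148297-107148447 (Cdh16, reverse), chr14:65059396-65059546 (Msra, reverse) and chr14:18493319-18493469 (Thrb, forward). The Msra stretch is intronic and the others lie outside protein-coding transcripts. Capitals mark matches to GGAATG of TEAD (Wwtr1), TGANTCA of AP-1 (Anxa2, Perp), TTAATNATT, a homeodomain core (Rassf6), CCGGAAG of ETS and AGGTGGC of CTCF (Msra) and GTCACGC, a PAX core (Thrb), on either strand. Matches to GGGCGG and CCAAT were left in lower case. In 300 bp around the summit the PAX core occurred at 5.45% (3.97 to 7.46) of the 660. It was at 4.93% (4.24 to 5.73) of promoters common to the 3 lines and 2.62% of all gene starts.
Wwtr1: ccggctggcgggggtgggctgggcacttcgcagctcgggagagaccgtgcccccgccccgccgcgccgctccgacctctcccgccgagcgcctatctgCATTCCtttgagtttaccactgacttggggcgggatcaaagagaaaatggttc
Anxa2: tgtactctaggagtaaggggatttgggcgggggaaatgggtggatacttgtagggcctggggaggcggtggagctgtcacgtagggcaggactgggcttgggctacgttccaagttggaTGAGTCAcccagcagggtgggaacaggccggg
Perp: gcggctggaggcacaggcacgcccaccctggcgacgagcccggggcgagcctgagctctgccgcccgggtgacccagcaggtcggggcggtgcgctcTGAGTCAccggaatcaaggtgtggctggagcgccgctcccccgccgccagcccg
Rassf6: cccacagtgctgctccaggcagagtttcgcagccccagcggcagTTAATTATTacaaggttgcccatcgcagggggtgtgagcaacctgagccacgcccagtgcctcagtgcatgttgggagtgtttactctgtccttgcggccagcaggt
Cdh16: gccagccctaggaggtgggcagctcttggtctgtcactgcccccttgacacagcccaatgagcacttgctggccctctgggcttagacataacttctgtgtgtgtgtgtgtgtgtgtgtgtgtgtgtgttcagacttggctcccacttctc
Msra: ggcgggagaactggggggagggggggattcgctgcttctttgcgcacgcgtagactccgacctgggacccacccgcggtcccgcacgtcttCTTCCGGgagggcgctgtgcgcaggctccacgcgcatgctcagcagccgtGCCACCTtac
Thrb: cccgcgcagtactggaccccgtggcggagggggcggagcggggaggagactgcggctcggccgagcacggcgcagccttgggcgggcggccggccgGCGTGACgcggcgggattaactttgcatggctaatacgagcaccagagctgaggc

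The homeodomain letters TTAATNATT occurred in the 300 bp around the summit of 11 of the 660 promoters, or 1.67% (95% Wilson interval 0.933 to 2.96). Homeodomains are DNA-binding domains of many developmental regulators. The 10 promoters besides Rassf6 are shown with the match in capitals and 10 bases on each side, forward strand of mm9. This set was picked after the counts were seen.
Gm3776: atcatcaggtAATGATTAAtaaccaagac
Mia2 and Rpl21-ps3: aaaacccctgTTAATTATTaagcccttcg
Ext1: caccaccttcTTAATTATTaacttctcct
Ddo: gagagtgtccTTAATAATTtccccaatgg
Atp5d and Dos: atcatgaaatTTAATTATTtatttagcag
Cc2d2a: cgcctggagtAATCATTAAgccagcctgg
Slc4a2: taagaagtctAATGATTAActccggtggc
Golt1a: agggtgagagTTAATGATTtacctgcggc
Slc25a48: cgggtcccatAATGATTAAaccgctggtc
Capn5: ctggtctctgTTAATGATTacctcaacct

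Of these 11, Gm3776 (chr9:78104065-78104093) had 81 fragments and a fold enrichment of 6.92, the third highest of all 660. Rassf6, a Ras-association domain protein, followed with 77 fragments and 6.58. Mia2 (chr12:60196536-60196564) and Ext1 (chr15:53027952-53027980), a heparan sulfate polymerase, held a second, overlapping match on the other strand. The remaining 7 had fold enrichments from 2.70 (Capn5, a calpain protease) to 3.21 (Ddo, D-aspartate oxidase), among them Slc4a2, an anion exchanger, at 2.99. In 8 of the 11, the match centre lay within 50 bp of the RAG summit. The same letters were found at 0.122% of the 3283 promoters common to the 3 lines and 2.42% of the 2898 RAG-only intervals away from starts. All gene starts held them at 0.948% (0.827 to 1.09), which overlaps the interval of the 660. Of β-TC3-only promoters 0.15% held them, and of MV+-only promoters 0 of 282 (upper Wilson limit 1.34%). Within the 660 they occurred at 4.85% of CpG-poor and 0.299% of CpG-rich windows, classes defined below.

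Signal at the 660 promoters was low. The pileup, the number of fragments that overlapped the summit, had a median of 41 (quartiles 34 and 48, range 25 to 207). The fold enrichment, the pileup over the local background with 1 added to each, had a median of 3.32 (quartiles 2.87 and 3.85, range 1.93 to 9.01). RAG peaks at the 3283 promoters common to the 3 lines had medians of 74 fragments and 5.48, and those at 3028 promoters shared with β-TC3 alone had 48 and 3.97. RAG-only intervals away from starts had 40 and 3.04. Median peak width was 358 bp at RAG-only and 647 bp at common promoters. A q-value under 0.001 was reached by 605 of the 660.

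**Figure D1:**
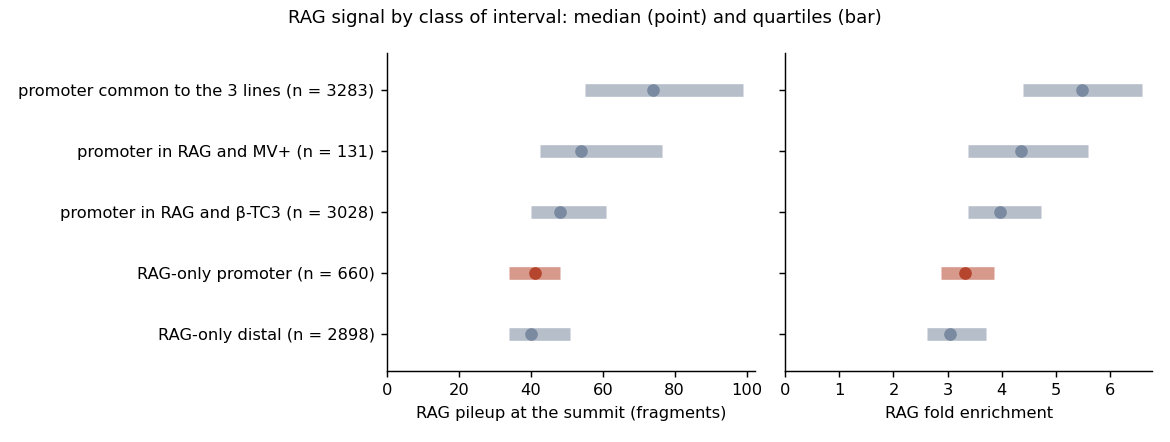
Median (point) and quartiles (bar) of the RAG pileup in fragments and of the RAG fold enrichment, for RAG peaks of 5 classes of interval. The RAG-only promoters, with medians of 41 and 3.32, lie close to the RAG-only distal intervals and below the promoters shared with another line.

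**Figure D2:**
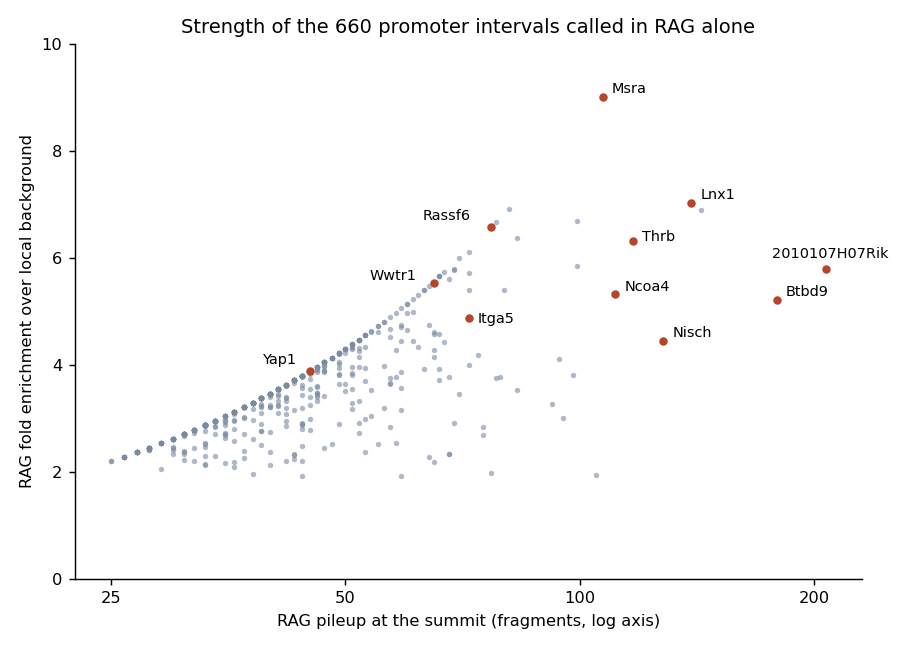
Each point is 1 of the 660 promoters, with the RAG pileup in fragments (log axis) against the RAG fold enrichment; red points are named. The upper edge holds the promoters whose local background was at its lowest value of 10.9 fragments, and Msra stands highest at 9.01.

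Msra, the methionine sulfoxide reductase A that repairs oxidised proteins, had the highest fold enrichment, 9.01, with 107 fragments at chr14:65059181-65059820. Lnx1, a ubiquitin ligase for Numb, followed with 7.03 and 139 fragments. Gm3776, at 6.92, and Gm14401, at 6.89, are predicted genes with close copies in the genome, and how reads of such copies were assigned is not given in the sources used here. The receptor phosphatase Ptprk reached 6.70 with 99 fragments. The start shared by Polr2f, an RNA polymerase subunit, and 1700088E04Rik reached 6.66. Tec, a cytoplasmic tyrosine kinase, had the same 77 fragments and 6.58 as Rassf6. Between 5.80 and 6.37 lay Lhpp, a histidine phosphatase, Thrb, a thyroid hormone receptor, Rreb1, a Ras-responsive zinc finger factor, Unc5b, a netrin receptor, Pla2g6, a phospholipase, Prkcz, the atypical protein kinase C zeta, and 2010107H07Rik. By pileup the order differed. 2010107H07Rik had 207 fragments, Btbd9 179, Gm14401 143, Nisch 128, Thrb 117, Ncoa4, the receptor that directs ferritin to autophagy, 111, and 2410141K09Rik 105. The fold enrichment at 2410141K09Rik was only 1.95, close to the lowest of the 660, 1.93, and MV+ was called at another of its starts. Local background at Nisch was 28 fragments and at 2010107H07Rik 34.9, against a median of 10.9 over the 660. At the other end, Parp10 had 25 fragments, and Aebp1, Dnajc8, Kif22, Plaur and Rplp1 were among those with 26.

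The summit lay within 250 bp of a start at 497 of the 660, or 75.3% (71.9 to 78.4), against 88.7% (87.6 to 89.7) of the common promoters. A start was inside the interval at 463, or 70.2% (66.6 to 73.5), against 97.4% of the common ones. Each common interval is a union of peaks of the 3 lines and each RAG-only interval is 1 peak, so these shares are of unlike intervals. Summits fell outside protein-coding transcripts in 252, in an untranslated part of an exon in 203, in a coding exon in 41 and in an intron in 164. The intronic share was 24.8% (21.7 to 28.3), against 11.4% (10.3 to 12.5) of common promoters. The interval served 1 gene in 606 cases, 2 genes in 53 and 3 genes (C230096C10Rik, Mrto4 and Ubr4) in 1. Starts on both strands were present at 51, such as Cryab and Hspb2, neighbouring small heat shock genes. Just inside the limit of 1 kb were Mlxipl (990 bp from the interval to its start), Pitpnc1 (988), Sema6a (986), Slc1a5 (973) and Slc44a4 (973). Just outside it were Src (1008), Lamb1 (1052), Gm14221 (1061), Smarcd3 (1064) and Gm10377 (1067), although Lamb1 was kept through another interval at its start with 39 fragments.

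Of 7102 promoter intervals with a RAG peak, 9.29% (8.64 to 9.99) were called in RAG alone, against 46.9% (45.6 to 48.1) of its distal intervals. The number of RAG-only promoters was 1426 when the 9821 peaks of smallest q were used in each line, and 356 when that many RAG peaks were set against all peaks of the others. The nearest peak of another line was a median of 18782 bp away. It lay within 1 kb at 68 promoters, such as Six4 at 401 bp and Pdgfra at 241 bp, and there the other line was called beside the RAG peak at the same start. At 161 no other line had a peak within 50 kb. Thrb was such a case, with the nearest 577001 bp away, as was Wwtr1, with the nearest 74690 bp away. Of the 694 genes, 554 (79.8%, 76.7 to 82.6) had no β-TC3 or MV+ call at any start.

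**Figure D3:**
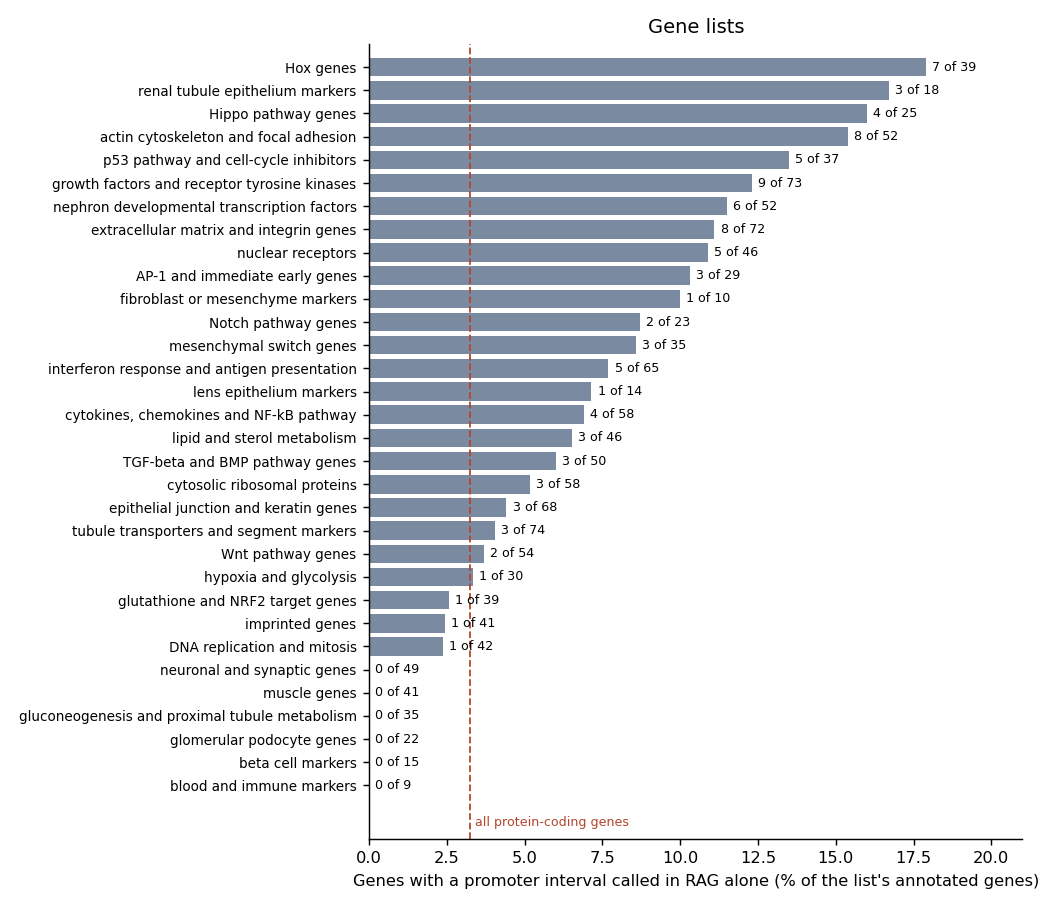
Bars give the share of each gene list, in percent of its annotated genes, that had a promoter interval called in RAG alone, with the counts beside them. The dashed line is the 3.24% of all protein-coding genes, and Hox genes stand highest at 7 of 39.

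The lists of genes used below were chosen with the calls of these lines known, so their shares describe the promoters and nothing is read from their rank. Of 1246 listed genes, 88 (7.06%) had a RAG-only promoter, against 3.24% of all protein-coding genes. Among the 395 listed genes with any RAG promoter peak the share was 22.3%, against 8.89% of all genes with such a peak.

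Hox genes, which fix position along the body axis, had RAG promoter peaks at 7 of 39, and each of the 7 had a RAG-only interval. Hoxc6 was the strongest, with 72 fragments and a fold enrichment of 4.00, its summit 1072 bp into the gene and the nearest peak of another line 158627 bp away. Hoxb9 had 41 and 3.33. Hoxa3, Hoxa7, Hoxa10 and Hoxa11 had 32 to 36 fragments and fold enrichments of 2.78 to 3.12. The HoxA cluster on chromosome 6 held 5 members. MV+ had no call at any of the 39, and β-TC3 had a call at Hoxa7, with 73 fragments, besides the RAG-only interval of that gene. For the remaining 32 Hox genes no line was called.

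Transcription factors of nephron development contributed 6 of 52. Besides Pax2 and Hoxa11, these included Six4 with 64 fragments, Mecom with 48 and Tcfap2a with 70. Six4 and Tcfap2a also had a β-TC3 or MV+ call at a start. Of the tubule transporters and segment markers, 3 of 74 were included, namely Cdh16, Spp1, the secreted phosphoprotein osteopontin (34 fragments), and Slc17a1, a phosphate transporter (33). Podocyte genes (0 of 22) and genes of gluconeogenesis and proximal tubule metabolism (0 of 35) were not represented.

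Epithelial structure was represented by few genes. Keratins had RAG calls at 3 of 51 genes, all RAG-only, and no call in either other line. These were Krt80 with 49 fragments, Krt79 with 39 and Krt18 with 36. Of the junction and keratin list, which does not hold Krt79, 3 of 68 genes were included: Krt80, Krt18 and Spint2, an inhibitor of membrane serine proteases (39 fragments). Claudins gave 0 of 27, and Cdh16 was the single hit among 62 cadherins and protocadherins. Outside the lists, both lethal giant larvae polarity genes, Llgl1 and Llgl2, were RAG-only with 40 fragments each. This family was picked after the members were read, so its count stands without comparison.

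Genes of the Hippo pathway, which restrains growth by keeping YAP and TAZ out of the nucleus, were included at 4 of 25. Wwtr1 (TAZ) had 65 fragments and a fold enrichment of 5.53 at chr3:57379283-57380501. Yap1 had 2 RAG-only intervals, with 45 fragments and 3.88 at chr9:8004066-8004882 and with 36 and 3.12 at chr9:8003563-8003848. Tead3, a DNA-binding partner of both, had 40 fragments and 2.75, and Lats2, the kinase that inhibits them, 33 and 2.87. None of the 4 had a call of another line at a start, and with the 9821 strongest RAG peaks alone 2 of them, Wwtr1 and Yap1, were kept. In total 15 of the 25 genes had a RAG promoter peak, 13 a β-TC3 peak and 6 an MV+ peak.

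Actin and focal adhesion genes were included at 8 of 52. The tropomyosin Tpm1 had 36 fragments, the annexin Anxa2 42, the calcium-binding S100a6 37, the LIM-domain protein Fhl2 35, Lasp1 44 and Cdc42ep1 45, while Cav1, of caveolae, had 31. Tpm1, Lasp1 and Cav1 had another line's call at a start. Matrix and integrin genes were included at 8 of 72, none with such a call. The fibronectin receptor subunit Itga5 had 72 fragments and a fold enrichment of 4.88, and the laminin receptor subunit Itga7 49 and 4.22. The laminins Lamb1 and Lama5, the basement membrane components Col18a1 and Hspg2, Efemp2 and Spp1 had 33 to 39 fragments. Mesenchymal genes gave 3 of 35, among them Itga5 and Tcf4.

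Growth factors and receptor tyrosine kinases gave 9 of 73. Igf1r, the receptor of insulin-like growth factors, had 66 fragments and a fold enrichment of 4.59, the angiogenic factor Vegfb 48 and 4.13, and the EGF receptor ligand Tgfa 45 and 3.88. Ephb4, Pdgfra, Erbb2, Mst1r and Fgfr2 had 30 to 57 fragments. Pdgfra and Fgfr2 were also called in another line. Of the TGF-beta and BMP genes, 3 of 50 were included: the kidney-expressed ligand Bmp7 with 59 fragments, the inhibitor Smad6 with 39 and the effector Smad3 with 28. Wnt genes gave 2 of 54 (Fzd2 and Wnt7b) and Notch genes 2 of 23 (Rfng and Nrarp), with shares near or above the 3.24% of all genes.

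Nuclear receptors were included at 5 of 46. The thyroid hormone receptors Thrb and Thra had 117 and 38 fragments, with fold enrichments of 6.32 and 3.29, the vitamin D receptor Vdr 65 and 4.27, the orphan receptor Rora 45 and 3.88, and the retinoic acid receptor Rara 39 and 2.90. Vdr and Rara were also called at a start in another line. Thra and Rara lay with Msl1 and Wipf2 in 1 run of RAG-only promoters at chr11:98603046-98821837.

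Stress and cell-cycle genes were present in small numbers. Perp, with 55 fragments and a fold enrichment of 4.72, Phlda3 with 43, Pltp with 46, the cyclin kinase inhibitor Cdkn1a with 44 and the death gene Pmaip1 with 27 made 5 of 37 genes of the p53 list. Maff, Fosl1 and Ier3, with 49 to 63 fragments, made 3 of 29 AP-1 and immediate early genes, of which 21 had some RAG promoter peak. Interferon and antigen presentation genes gave 5 of 65 (H2-K1, Parp9, Tap2, Ifitm2 and Oas1a, 27 to 51 fragments), and the class I gene H2-K1 and Ifitm2 have close copies. Cytokine and NF-kB genes gave 4 of 58. The chemokine gene Cxcl5 had 2 intervals, with 72 fragments and 5.71 at the start and 49 and 3.95 beside it, while Nfkb2 had 56, Cxcl2 32 and the double-stranded RNA receptor Tlr3 30. Cdkn1a, Parp9 and Nfkb2, like Tcf4 and Gnas, also had a call of another line at a start.

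Lipid genes gave 3 of 46 (the lipid droplet genes Plin4 and Plin3 and the acyltransferase Agpat2), ribosomal proteins 3 of 58 (Rps25, Rps16, Rplp1), replication and mitosis 1 of 42 (E2f2), hypoxia and glycolysis 1 of 30 (Edn1, endothelin), NRF2 targets 1 of 39 (Mgst1) and imprinted genes 1 of 41 (Gnas). A RAG promoter peak of any kind was called at 32 of the 42 replication genes. Neuronal genes gave 0 of 49 and muscle genes 0 of 41; β-TC3 was called at 27 of the neuronal genes and RAG at 2. Solute carriers gave 11 of 356 and zinc finger genes 12 of 428, both close to the background of 3.24%. Olfactory and vomeronasal receptors gave 0 of 1432, and FOX genes 0 of 40.

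Further small families were picked after the members were read, so their counts stand without comparison. Both neuropilins, the semaphorin receptors Nrp1 and Nrp2, had a RAG-only promoter, with 40 and 45 fragments and fold enrichments of 2.12 and 3.54. So did F2r, the thrombin receptor, with 68 fragments and a fold enrichment of 5.61, and F2rl1 with 61 and 4.99, which are 2 of 4 protease-activated receptors. Annexins gave 3 of 12 (Anxa2, Anxa7, Anxa11), galectins 2 of 8 (Lgals1, Lgals3) and genes named as nuclear receptor coactivators 3 of 7 (Ncoa3, Ncoa4, Ncoa6). The calcineurin-regulated NFAT factors gave 2 of 4 (Nfatc1, Nfatc2), the ATG8 proteins of autophagosomes 2 of 5 (Map1lc3b, Gabarap) and the ERK and p38 kinases 2 of 6 (Mapk3, Mapk12).

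For 140 of the 694 genes, β-TC3 or MV+ was called at a start outside the RAG-only interval. In 81 that other peak was within 2 kb, and in 37 it was over 10 kb away, so that the RAG-only interval lay near another annotated start. Some of these intervals were also near the start of a neighbouring gene, as at Tex14 and Rad51c. Use of these starts was not tested. Ppm1h, a protein phosphatase, had a RAG-only interval with 49 fragments, and its peak common with β-TC3 and MV+ lay 214932 bp away. At Ext1 the distance was 149199 bp, at the splicing factor Rbfox2 152427 bp and at the zinc finger factor Zbtb20 (59 fragments, fold enrichment 5.06) 115620 bp, and in all these genes the distant start was also open in RAG. At Rreb1 (88597 bp), Prkcz (15219 bp) and Ank3 (391262 bp) the distant start was called in β-TC3 and not in RAG. RAG was called at the other start in 96 of the 140. In 21 genes, such as Yap1, Cxcl5, Smad6 and Nfatc2, there were 2 RAG-only intervals.

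The 300 bp around the summit were CpG-poor (observed over expected CpG under 0.48) at 165 of the 660, or 25% (21.8 to 28.4). The share was 3.99% (3.37 to 4.72) at common promoters, 24.5% (22.9 to 26.2) at β-TC3-only promoters, 34.0% (28.8 to 39.8) at MV+-only promoters and 89.0% at RAG-only distal intervals, so the RAG-only and β-TC3-only shares had overlapping intervals. The RAG-only share was 10.0% with equal peak numbers per line and 16.0% where a start had to lie inside the interval. CpG-rich windows (over 0.75 with at least 55% GC) made up 50.6% of the RAG-only and 70.8% of the common promoters. The CpG-poor members lay farther from starts, with 52.1% (44.5 to 59.6) of summits within 250 bp against 86.5% (82.4 to 89.8) of the CpG-rich ones.

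AP-1 letters, TGANTCA, were present at 58 of the 660, or 8.79% (6.86 to 11.2), against 3.75% (3.15 to 4.45) of common promoters, 5.87% of all gene starts and 29.4% (27.8 to 31.1) of RAG-only distal intervals. Promoters of the other lines alone held them too, at 6.07% (5.22 to 7.04) in β-TC3 and 17.4% (13.4 to 22.2) in MV+. Within the 660 they occurred at 19.4% of CpG-poor and 2.4% of CpG-rich windows. The TEAD letters GGAATG were at 10.8% (8.62 to 13.4), against 8.89% (7.97 to 9.92) of common promoters, 12.3% of all gene starts, 10.1% of β-TC3-only and 13.5% of MV+-only promoters. ETS letters, CCGGAAG, were at 11.2% (9.03 to 13.8), against 19% (17.7 to 20.4) of common promoters and 11.5% of all gene starts. GGGCGG of SP and KLF factors was at 66.2% (62.5 to 69.7), below the 79.8% (78.4 to 81.2) of common promoters and above the 46.6% of all gene starts. Both strands were searched and matches may overlap. The windows differ in base composition, and its part in these shares was not tested. A match of letters is no binding site.

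**Figure D4:**
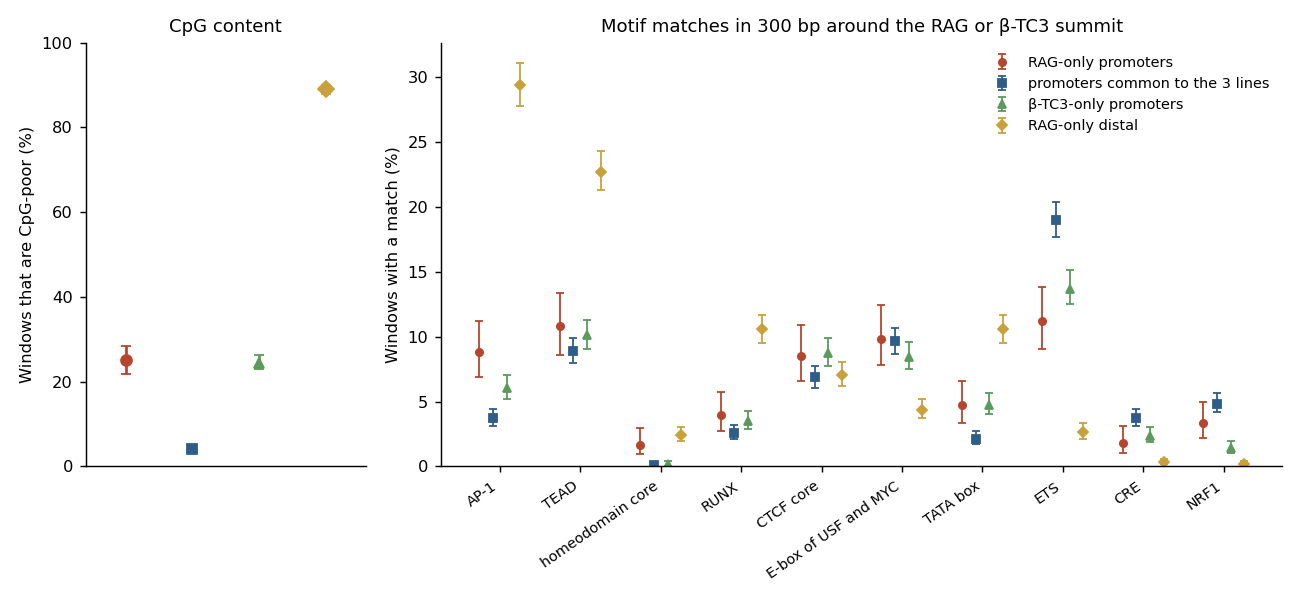
Left, the share of 300 bp windows that are CpG-poor; right, the share with a match to each of 10 motifs. Points are percentages and bars 95% Wilson intervals; AP-1 letters were at 8.79% of RAG-only promoters, between 3.75% of common promoters and 29.4% of RAG-only distal intervals.

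A RAG-only distal interval lay within 50 kb of 159 of the 660 promoters, or 24.1% (21 to 27.5). The share was 10.5% (9.51 to 11.6) for common and 9.55% (8.49 to 10.7) for β-TC3-only promoters. Distal intervals of β-TC3 alone lay as near to 35.2% of the 660. The other lines had the like pattern, with 50.3% of β-TC3-only promoters near a β-TC3-only distal interval and 30.9% of MV+-only promoters near an MV+-only one. Within 100 kb of each other, the 660 formed 66 pairs, 14 runs of 3, 5 of 4 and 5 of 5. The runs of 5 were HoxA, Sbno2 to 1600002K03Rik on chromosome 10 (79538078 to 79635909), Traf4 to Unc119 on chromosome 11 (77978928 to 78157225), Card10 to Triobp on chromosome 15 (78633032 to 78819302) and Cbl to Bcl9l on chromosome 9 (44041722 to 44307093). Their pileups ranged from 27 to 52 fragments.

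By chromosome, the share of genes with a RAG-only promoter was 6.78% (5.23 to 8.74) on chromosome 15, 5.51% on 11, 5.23% on 9 and 5.04% on 14, and 1.21% (0.736 to 1.99) on chromosome 1, 1.23% on 3 and 1.71% on 6. The β-TC3 signal tended to move against this share, with exceptions. At promoters common to the 3 lines the median β-TC3 pileup was 118, 90, 87 and 89.5 fragments on chromosomes 15, 11, 9 and 14, and 178, 148 and 243 on chromosomes 1, 3 and 6. The next lowest shares were 1.74% on chromosome 7, 1.93% on 18, 2.08% on 16 and 2.17% on 2. The β-TC3 medians there were 105, 136, 166 and 104 fragments, in that order. Over the 19 chromosomes Spearman's rho between the share and that β-TC3 pileup was -0.696, and with the RAG pileup 0.352; genes of a chromosome share its depth, and the part of β-TC3 depth in the absence of β-TC3 calls was not tested.

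**Figure D5:**
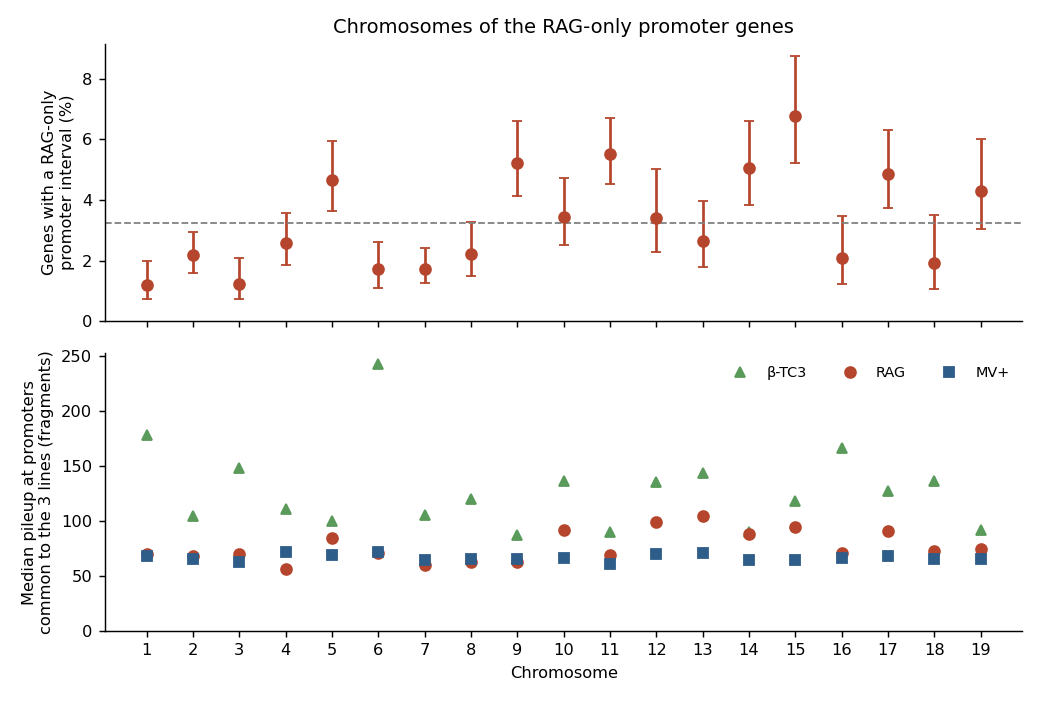
Upper panel, percent of protein-coding genes per chromosome with a RAG-only promoter (bars, 95% Wilson intervals; dashed line, 3.24%). Lower panel, median pileup of each line, in fragments, at promoters common to the 3 lines. The chromosomes with the lowest shares, 1, 3 and 6, have β-TC3 medians of 178, 148 and 243, and chromosome 7, at 1.74%, has 105.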

How the data were processed

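ATAC-seq was run on 2 suspensions of each of 3 mouse cell lines (50000 nuclei, 11 PCR cycles, 75 bp paired reads). Per the methods and file headers, the authors trimmed with Trim Galore 0.4.1, aligned to mm9 with Bowtie2 2.2.6, pooled both replicates and called peaks with MACS2 2.1.1.20160309 at q 0.05, keeping duplicates, with no control library. The deposited tables give the pileup signal, fold enrichment as a ratio and -log10 q-values per peak. The deposited narrowPeak files add an integer score and held the same peaks; they were used for that comparison alone. A mapping-quality filter is not given in the sources used here. Peaks were merged and matched to starts of protein-coding transcripts (GENCODE M1, NCBIM37) in Python 3.11.15 with pandas 2.3.3. Genes were named if among the 15 highest by fold enrichment, the 10 highest or 5 lowest by pileup, in a list (up to 8 a list), nearest the 1 kb limit, or in the 5 longest runs. Promoters and lists were chosen with earlier results of these data known. Wilson 95% intervals (SciPy 1.17.1) cover counting alone, since peaks are not replicates. Alternatives varied q, peak number, distance, merging and starts. The procedure was tested on simulated peaks. A few named genes are not reported here.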

Additional observations from a re-analysis of the deposited data

Results flagged for a closer look

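Chromosome X was outside the comparison. With the same rule it held 5 promoter intervals called in RAG alone, among them those at Col4a5, a basement membrane collagen, Elf4, Mbnl3 and Xlr, while MV+ had 4 such intervals and β-TC3 143. They are given as values, since they lie in data that the report did not use.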

How the results depend on the processing

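The counts depended on the number of peaks used. With 9821 peaks of smallest q per line, RAG-only promoters numbered 1426, at 1581 genes, 1501 of them without another line's call, and made 24.0% of RAG promoter intervals, with 10.0% CpG-poor and a median fold enrichment of 3.97. With 9821 RAG peaks against all others these were 356, 383, 316, 5.99%, 24.2% and 3.80. Both settings kept the same number, 356, of the 660. With β-TC3 left out (added after the data were seen) they were 3721, 4038, 3897, 52.2%, 7.77% and 3.80. With MV+ left out (also added later), the RAG-only share was 11.2% and the median 3.42. A start inside the interval gave 6.96% RAG-only, 16.0% CpG-poor and a median of 3.46. A start within 2 kb gave 10.1% and 30.1%, merging up to 1 kb apart 8.24%, and 1 start per gene 8.36% and 21.1%. At q under 0.001 the median was 3.42 and 605 of the 660 stayed. Of the 4 Hippo genes, 2 stayed with the strongest RAG peaks, as did 3 of 7 Hox genes, 2 of 8 matrix genes and 2 of 8 actin genes. No paired analysis was possible because both replicates of a line were pooled in 1 call, and for the same reason no replicate could be left out.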
